A study of Homo sapiens with 2 samples.

Results

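The genes described are 8 genes of non-homologous end joining, the set XRCC5, XRCC6, PRKDC, LIG4, XRCC4, NHEJ1, PAXX and DCLRE1C. They were chosen by name as genes of the pathway, with no measured value in the rule, and are 8 of 20037 protein-coding genes placed on chromosomes 1 to 22, X and Y. HNRNPK binding around them was read from ChIP-seq of untreated H1299 cells, an established human line labelled lung adenocarcinoma. The IP library held DNA pulled down with an HNRNPK antibody from Proteintech, and the input library was made with no antibody. With 1 IP and 1 input there were no replicates, so no value below has a replicate error and no test between conditions was possible. The peak names spell the cell line with an A in place of the H, and the list was read as that of the H1299 IP.

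Non-homologous end joining is the pathway by which human cells rejoin the ends of a broken chromosome directly, without a copy to read from. The Ku ring, made of the products of XRCC5 and XRCC6, slides onto each end and recruits the kinase encoded by PRKDC. The nuclease encoded by DCLRE1C trims the ends, XRCC4 and NHEJ1 products form filaments that hold them together, PAXX helps to stabilise the assembly, and LIG4 encodes the ligase that seals the break. XRCC5 is also of interest here because it has been described as a coactivator of CLCN3 transcription, the gene at the centre of the study. HNRNPK is a nuclear protein whose KH domains bind C-rich single-stranded RNA and DNA.

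A peak is a stretch where the IP coverage exceeded a local background by the peak caller's threshold, and each gene was searched over its span plus 10 kb to either side, here called its window. Of the 8 genes, 4 had a peak in the window (50.0%, Wilson 95% confidence interval 21.5% to 78.5%), namely XRCC5, XRCC6, PRKDC and PAXX. The other 4, LIG4, XRCC4, NHEJ1 and DCLRE1C, had none. The same window held a peak for 43.8% of all protein-coding genes, so the share among the end joining genes was close to the background. The 4 genes carried 6 peaks, of which 3 were in PRKDC. Only XRCC6 and PRKDC had a peak inside the gene itself, 2 of 8, against 29.7% of protein-coding genes. An FDR under 0.05 was given to 2 of the 6 peaks, 1 beside XRCC5 and 1 in PRKDC, and to 3463 of the 22351 peaks in the list (15.5%). By gene, such a peak lay in the window of 2 of the 8 genes and of 10.9% of protein-coding genes. The interval covers counting error only, and these shares describe 1 peak list.

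No peak reached the promoters of these genes as far as the sequence table covers them. RefSeq promoter windows of 300 bases, from 250 before to 50 after a transcription start on GRCh38.p14, were found for 6 of the 8 genes, 12 windows in all, and XRCC5 and PRKDC had no entry. Some of the LIG4 windows overlap each other, as do those of NHEJ1. None of the 12 windows overlapped a peak, where 1.67% of 35116 windows of the table did. The nearest peak was 10.4 kb from the PAXX window, 30.5 kb from the XRCC6 window, 41.1 kb from the XRCC4 window and 58.9 kb from the outer NHEJ1 window. The stretches shown are the 250 bases before the start in the 3 genes where these touch no annotated gene. These stretches are given because the study named the letters GCGAGG and CTAATG jointly as binding motifs in its ChIP-seq data, and GCGAGG also alone. HNRNPK is also known for C-rich targets. Capitals mark GCGAGG or CTAATG, and the C-rich run CCCTCCC, on either strand, and each stretch reads 5′ to 3′ on the strand of its gene.

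XRCC6, chr22:41621045-41621294, plus strand: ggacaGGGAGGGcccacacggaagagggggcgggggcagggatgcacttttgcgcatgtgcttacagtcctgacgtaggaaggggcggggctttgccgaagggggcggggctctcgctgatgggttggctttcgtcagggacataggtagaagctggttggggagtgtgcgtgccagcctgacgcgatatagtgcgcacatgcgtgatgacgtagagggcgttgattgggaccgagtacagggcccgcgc
PAXX, chr9:136992172-136992421, plus strand: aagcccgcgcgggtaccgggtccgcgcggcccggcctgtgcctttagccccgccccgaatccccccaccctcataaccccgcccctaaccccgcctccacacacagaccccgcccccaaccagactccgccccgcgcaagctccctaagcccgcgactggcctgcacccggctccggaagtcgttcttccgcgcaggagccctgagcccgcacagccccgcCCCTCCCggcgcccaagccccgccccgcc
NHEJ1, chr2:219160816-219161065, minus strand: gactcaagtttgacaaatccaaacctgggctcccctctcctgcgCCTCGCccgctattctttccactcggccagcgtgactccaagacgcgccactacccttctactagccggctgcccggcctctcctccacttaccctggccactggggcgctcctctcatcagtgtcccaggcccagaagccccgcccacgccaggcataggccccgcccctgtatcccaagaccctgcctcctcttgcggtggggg

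The stretches differed in base composition, with 52.8% C in PAXX, 43.2% in NHEJ1 and 20.8% in XRCC6, where G made up 42.8%. The printed bases held CCCTCCC once in PAXX and, as its reverse complement GGGAGGG, once in XRCC6. GCGAGG was present once in NHEJ1, as its reverse complement CCTCGC, and in neither of the other two. Over the 12 windows of 300 bases, GCGAGG was found in 4, belonging to NHEJ1, XRCC4 and DCLRE1C, and 22.0% of all windows of the table held it. In XRCC4 and DCLRE1C the window also overlaps a neighbouring gene, TMEM167A and MEIG1 respectively. CTAATG was found in 1 window, of LIG4, against 6.49% of all windows. CCCTCCC was found in 3 windows, of XRCC6, PAXX and the inner of the 2 NHEJ1 windows, against 26.6%. The shorter run TCCC, which every CCCTCCC contains, was found in all 12 windows and in 96.0% of the table. A match of letters is a description of the sequence and not a binding site.

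XRCC5 (gene ID 7520), which encodes the larger Ku subunit Ku80, lies on chromosome 2 from 216109348 to 216206293 and spans 96.9 kb. Its window held 1 peak, from 216105734 to 216106009, which is 276 bp long and ends 3339 bp below the lower-coordinate end of the gene. The peak overlaps no annotated gene. It sits in the 6564 bp between TMEM169 and XRCC5, 2951 bp from TMEM169, so it is about as close to the one gene as to the other. Its pileup, the IP coverage in scaled fragments, was 8.76, which corresponds to 9 fragments. Its fold enrichment over the local background was 4.77, above that of 93.6% of all peaks, while its pileup was above that of 60.3%, and its FDR was 0.0243. Inside the 96.9 kb of XRCC5 there was no peak, and the next peak on the other side was 153.3 kb beyond the gene, in MARCHF4.

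Differences of a single fragment separate peaks of this strength. The local background of the XRCC5 peak was 1.05, the lowest level in the list, where 4902 of 22351 peaks sat (to within 0.003). At this level all peaks with the same number of fragments had the same FDR. Peaks of 8 fragments there had a median fold of 4.30 and an FDR of 0.101, peaks of 9 had 4.77 and 0.0243, and peaks of 10 had 5.25 and 0.00457. The peak beside XRCC5 therefore lies 1 fragment above the level at which an FDR of 0.05 is no longer met, and 414 peaks of the list, itself included, have exactly its fold and pileup. At the same background, peaks were listed from 5 fragments upward.

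**Figure D1:**
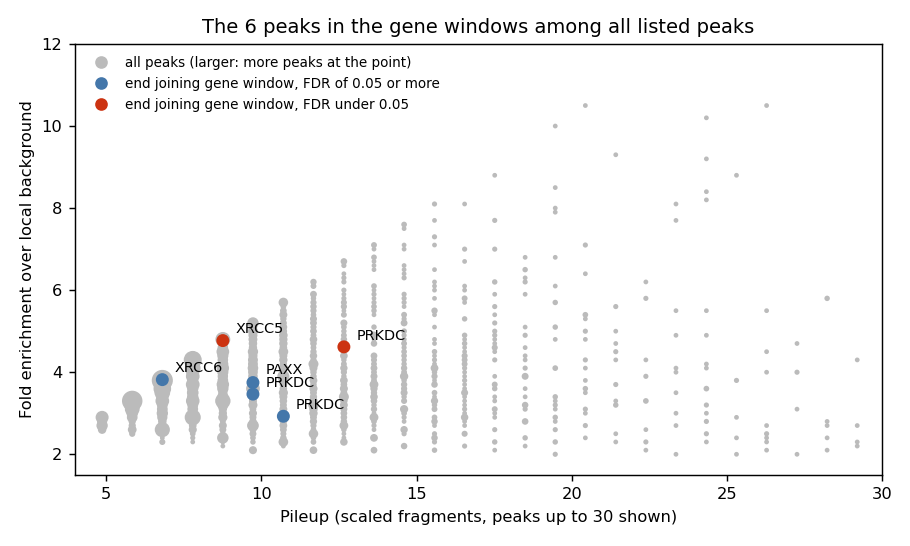
Fold enrichment over the local background plotted against pileup in scaled fragments, with grey points for all peaks with a pileup up to 30 (fold rounded to 1 decimal, larger points for more peaks) and coloured points for the 6 peaks in the windows of the end joining genes. The XRCC5 peak sits at the upper edge of its column at a pileup of 8.76, where the local background is lowest, while the 3 PRKDC peaks lie lower in their columns.

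XRCC6 (gene ID 2547) encodes Ku70, the partner of the XRCC5 product. The gene lies on chromosome 22 from 41621295 to 41664041 on the plus strand, a span of 42.7 kb. It held 1 peak inside the gene, from 41651869 to 41652101, with a length of 233 bp. This is the shortest length in the list, that of 32.0% of all peaks and of 4 of the 6 peaks in the gene windows. The XRCC6 peak begins 30.6 kb after the gene's first base and ends 11.9 kb before its last. Its pileup was 6.81, from 7 fragments, its fold enrichment was 3.82 and its FDR was 0.290. Of all peaks, 16.4% had a lower pileup, and 1631 peaks (7.30%), itself included, had its fold and pileup. The next peaks were 172.7 kb below and 52.5 kb above the gene, and the nearest peak with an FDR under 0.05 was 635.4 kb away, in TCF20. The 2 Ku genes thus each had 1 peak in the window, outside the gene at XRCC5 and inside it at XRCC6, and 2 fragments apart in coverage.

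PRKDC (gene ID 5591), which encodes the catalytic subunit of the DNA-dependent protein kinase, had the most peaks of the 8 genes. It spans 187.0 kb of chromosome 8, from 47773111 to 47960136, and its 3 peaks all lay inside the gene, in the 50 kb next to its lower-coordinate end. The strongest, from 47809109 to 47809368, had a length of 260 bp, a pileup of 12.66 (13 fragments), a fold enrichment of 4.62 and an FDR of 0.00451. Its pileup was higher than that of 92.4% of all peaks, and it was the strongest of the 6 peaks by pileup and by FDR. A second peak, from 47775777 to 47776009, began 2.67 kb inside the lower end and had a pileup of 10.71, but with a fold of 2.93 and an FDR of 0.371. The third, from 47822107 to 47822339, had a pileup of 9.73, a fold of 3.47 and an FDR of 0.215.

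Coverage and fold ranked the PRKDC and XRCC5 peaks differently. The local background of the PRKDC peaks was 3.0, 1.96 and 2.10 in order of position, above the list median of 1.28, while it was 1.05 at XRCC5. The PRKDC peak with 11 fragments thus had a lower fold than the XRCC5 peak with 9. Copy number at these loci in H1299 cells was not tested. A further peak lay 12.6 kb below PRKDC, just outside the window, where the pileup was 8.76 and the FDR 0.269. The rest of the gene, the 137.8 kb above the third peak, held none, and the next peak was 35.8 kb above the gene in the non-coding gene UBE2V2-AS1, with 11.68 in pileup and an FDR of 0.0275. MCM4, the replication helicase gene that lies next to PRKDC, falls partly in the window, and no peak lay in that part.

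PAXX (gene ID 286257) was the shortest gene, with a span of 1555 bp on chromosome 9 from 136992422 to 136993976. The peak in its window, from 137002914 to 137003146, was 8938 bp above the gene, close to the 10 kb limit, and 4088 bp from ABCA2, a lipid transporter gene. It overlapped no annotated gene. Its pileup was 9.73 (10 fragments), its fold enrichment 3.75 and its FDR 0.122. On the other side the nearest peak was 16.8 kb away, with a pileup of 8.76, a fold of 3.99 and an FDR of 0.102. The peak was thus nearer to ABCA2 than to PAXX.

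The 4 genes without a peak in the window include the ligase and its partners. LIG4 (gene ID 3981), the ligase gene, lies on chromosome 13 from 108207442 to 108218349 and spans 10.9 kb. Its nearest peak was 102.1 kb above it, with a pileup of 4.87, the lowest in the list, a fold of 2.87 and an FDR of 1. Below the gene the nearest peak was 594.6 kb away. Chromosome 13 had only 0.919 peaks per Mb, and the median distance between neighbouring peaks on it was 398.4 kb. The 707.6 kb without a peak around LIG4 were matched or exceeded by 39 of the 104 distances on this chromosome.

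XRCC4 (gene ID 7518), whose product scaffolds the ligase, is the longest of the 8 genes with 296.9 kb of chromosome 5, from 83077547 to 83374473. No peak lay in its window, where 59.1% of the 3356 protein-coding genes of 100 kb or more had one in theirs. The nearest peak was 41.4 kb below the gene, with a pileup of 7.79, a fold of 4.06 and an FDR of 0.134. On the other side the nearest was 347.2 kb away, 782 bp from HAPLN1, with the same pileup, fold and FDR as the XRCC5 peak. The stretch of 685.5 kb between these peaks was equalled or exceeded by 60 of 1135 distances on chromosome 5 (5.29%), whose median was 50.5 kb. A stretch that contains a long gene without peaks is long by construction, so this rank describes the locus only.

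NHEJ1 (gene ID 79840), also known as XLF, lies on chromosome 2 from 219069357 to 219160815 and spans 91.5 kb. The nearest peak was 21.2 kb below it, outside the window, and it was both long, at 515 bp, and past the threshold on the FDR, at 0.0252, with a pileup of 8.76 and a fold of 4.71. On the other side the nearest peak was 59.2 kb away in ATG9A, with 5.84 in pileup and an FDR of 0.640. NHEJ1 thus stood in a stretch of 171.8 kb without a peak, and 38 peaks lay within 500 kb of it. The median distance between neighbouring peaks on chromosome 2 was 62.2 kb, and 399 of 1522 distances (26.2%) equalled or exceeded this stretch. As at XRCC4, a stretch that contains a long gene without peaks is long by construction.

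DCLRE1C (gene ID 64421), which encodes the nuclease Artemis, lies on chromosome 10 from 14897359 to 14954432 and spans 57.1 kb. Its nearest peak was 102.3 kb above the gene, in OLAH, with a pileup of 5.84, a fold of 3.34 and an FDR of 0.640. Below the gene the nearest peak was 160.2 kb away in FAM107B, where the pileup was 7.79 and the FDR 0.101. The nearest peak with an FDR under 0.05 was 1897 kb away, in CUBN, which was the longest such distance of the 8 genes. LIG4 followed with 1752 kb, XRCC6 with 635.4 kb, XRCC4 with 347.2 kb, PAXX with 69.4 kb and NHEJ1 with 21.2 kb.

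The distances to the nearest peak ran from 0 in XRCC6 and PRKDC through 3.34 kb for XRCC5, 8.94 kb for PAXX, 21.2 kb for NHEJ1 and 41.4 kb for XRCC4 to 102.1 kb for LIG4 and 102.3 kb for DCLRE1C. Their median was 15.1 kb, against 16.9 kb over all protein-coding genes. The end joining genes were longer than most, with a median span of 74.3 kb against 24.1 kb. LIG4 and DCLRE1C were farther from a peak than 78.0% of protein-coding genes. NHEJ1 lay near the middle, with 53.1% of protein-coding genes closer to a peak.

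Set against genes of like span, the end joining genes with and without a peak were mixed. A peak in the window was found for 35.2% of the 5694 genes under 10 kb, the class of PAXX, which had one. It was found for 42.6% of the 5503 genes of 10 to 30 kb, the class of LIG4, which had none. In the class of 30 to 100 kb, 44.7% of 5484 genes had a peak, and so did 2 of 4 end joining genes, XRCC5 and XRCC6 but not NHEJ1 and DCLRE1C. Of the 3356 genes of 100 kb or more 59.1% had one, and so did 1 of 2 end joining genes, PRKDC but not XRCC4. The windows of the 8 genes together covered 0.945 Mb and held 6.35 peaks per Mb, fewer than the 9.62 per Mb of all protein-coding gene windows combined and near the 7.16 per Mb of whole chromosomes.

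The surroundings of the genes also differed in how many peaks they held. Within 500 kb to either side, PAXX had 61 peaks, or 60.9 per Mb, and NHEJ1 had 38, or 34.8 per Mb. PRKDC had 12 peaks, XRCC5 had 10, XRCC6 had 8, XRCC4 and DCLRE1C had 5 each and LIG4 had 1. PAXX and NHEJ1 also had the most protein-coding genes in that region, 57 and 43, but XRCC6 with 32 genes had fewer peaks than PRKDC with 5. PRKDC had 6 peaks with an FDR under 0.05 among its 12, PAXX had 12 among its 61 and NHEJ1 had 8 among its 38, where 15.5% of all peaks in the list had such an FDR. XRCC5 had 1 among 10, the peak beside the gene itself, and XRCC4 had 1 among 5. XRCC6 had 0 among 8, DCLRE1C had 0 among 5 and LIG4 had 0 with its 1 peak.

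The other genes of break repair were taken from 4 lists, of accessory end joining factors, alternative end joining, break signalling with pathway choice, and homologous recombination. Of their 51 genes, 14 had a peak in the window (27.5%, Wilson 95% confidence interval 17.1% to 40.9%), below the 43.8% of all protein-coding genes. They were 4 of 12 accessory factors, 2 of 8 alternative end joining genes, 4 of 15 signalling genes and 4 of 16 recombination genes, beside 4 of the 8 core genes. An FDR under 0.05 was given to a peak of 3 of the 51 genes, XRCC1, SHLD1 and XRCC2, where 10.9% of all protein-coding genes had such a peak. The intervals of the core and the other lists overlap widely, and the difference was not tested.

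Among these genes XRCC1, which encodes the scaffold of single-strand break repair, had the strongest peak. It had 5 peaks in its window on chromosome 19, 3 of them inside the gene, and the highest, from 43546107 to 43546799, had a length of 693 bp, a pileup of 21.42 (22 fragments), a fold of 4.99 and an FDR of 2.6e-06. This was above every peak of the 8 core genes in pileup, fold and significance. SHLD1, of the shieldin complex that protects ends from resection, had 1 peak 2.07 kb below the gene with 8.76 in pileup and an FDR of 0.0497, and XRCC2, a gene of homologous recombination, had 1 at 7.31 kb above the gene with the same pileup and an FDR of 0.0409.

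At RNF8, the ubiquitin ligase gene of break signalling, a peak began 127 bp inside the lower-coordinate end, which is the start of this plus-strand gene, with a pileup of 8.76, a fold of 4.07 and an FDR of 0.101. Of the other genes described, those with a peak inside the gene included MDC1, the adaptor that binds the phosphorylated histone at breaks (2 peaks, each with a pileup of 8.76), MRE11, the nuclease of the break sensor (1 peak, 7.79), TDP1, which removes trapped topoisomerase (1 peak, 9.73), and ERCC6L2 (1 peak, 7.79). MRNIP had 1 inside and 1 beside the gene, with pileups of 7.79 and 8.76. HMCES had 2 peaks beside the gene, with 5.84 and 8.76, and the repair polymerase gene POLL had 1 at 8.42 kb, with 7.79. For none of these 8 genes did a peak have an FDR under 0.05. A further gene of homologous recombination among the 14 is not named here. It had 7 peaks, all inside its span of 863.3 kb, and the highest had a pileup of 9.73 and an FDR of 0.0588. Of the 14 genes, 2 had a single peak with a pileup of 5.84.

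**Figure D2:**
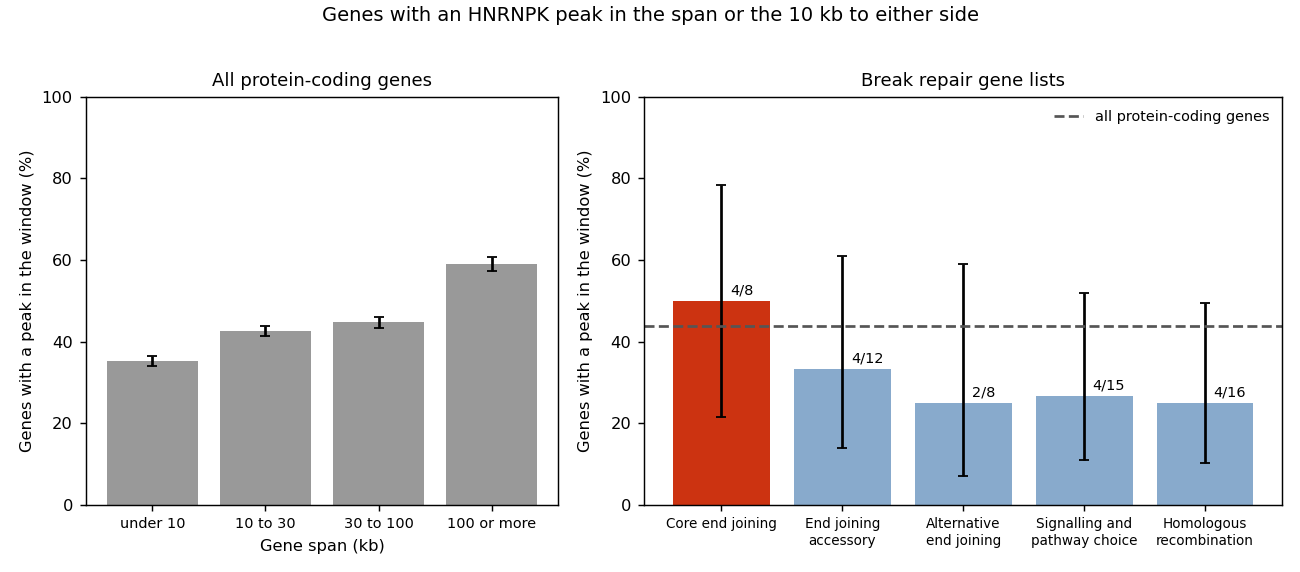
Percent of genes with a listed peak in the span or the 10 kb to either side, for all protein-coding genes by span in kb (left) and for the 5 lists of break repair genes (right, counts above the bars), with Wilson 95% confidence intervals for counting error only. The core list reaches 50.0% with an interval that holds the 43.8% of all protein-coding genes (dashed line), and the other 4 lists lie from 25.0% to 33.3%.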

How the data were processed

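HNRNPK ChIP-seq was analysed from 1 IP and 1 input library of untreated H1299 cells, through the 1 peak list given for the pair. The submitters' processing notes name Trimmomatic 0.36, STAR 2.5.3a, MACS2, bedtools, HOMER and GRCh38, and settings are not given in the sources used here. The fold enrichment, the FDR (a q-value, the adjusted p-value of a peak), the pileup (a signal in scaled fragments) and the peak length are deposited values of the authors. Fold enrichment was read as a ratio of IP coverage to local background, with 1 added to each. Library totals were not used here. Depth is known only through the pileups, which were whole multiples of 0.9735 to within 0.00668 of a step.

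For the local background, 1 was added to the pileup, the sum was divided by the fold, and 1 was taken off. Peaks were matched to RefSeq gene spans (GRCh38.p14) by an overlap of at least 1 bp, and distances run between nearest edges. Spans carry no exons or introns. Motif letters were counted on both strands of the RefSeq promoter windows. All 8 genes were named, and of the other lists the 12 genes with the highest peaks, of which 11 are described by name. The genes, lists and alternatives were chosen with earlier results of these data known. The alternatives were other windows, thresholds on FDR or fold, peak midpoints, merged peaks, all annotated genes and 1 strand. Window counts were tested on simulated data. Python 3.11.15, numpy 2.4.6, pandas 2.3.3, scipy 1.17.1 and matplotlib 3.10.9 were used.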

Additional observations from a re-analysis of the deposited data

How the results depend on the processing

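Of the end joining genes, 4 of 8 had a peak in the window, and this number was 2 with the gene span alone or 1 kb to either side (XRCC6 and PRKDC), 2 with an FDR under 0.05 (XRCC5 and PRKDC) and 0 where the fold had to reach 5, and it was 3 with 5 kb, 6 with 50 kb and 4 with peak midpoints. The 6 peaks became 16 with 50 kb, 2 with an FDR under 0.05 and 0 with a fold of at least 5. The share of protein-coding genes with a peak, 43.8%, moved with the same settings, to 29.7% with the span alone, 32.2% with 1 kb, 38.2% with 5 kb, 66.6% with 50 kb, 10.9% with an FDR under 0.05, 2.70% with a fold of at least 5 and 29.3% over all annotated genes. The 14 other repair genes became 9 with the span alone and with 1 kb, 27 with 50 kb, 3 with an FDR under 0.05 and 0 with a fold of at least 5. The median distance from the 8 genes to a peak, 15.1 kb, was 208.3 kb with an FDR under 0.05 (263.5 kb over all protein-coding genes). With a fold of at least 5 it was 1879 kb. No median over all protein-coding genes is given at that setting, so this distance has no background beside it. Narrower windows and stricter thresholds hold fewer peaks by construction. Motif matches over the 12 promoter windows fell from 63 to 25 with 1 strand only, with TCCC from 55 to 21, GCGAGG from 4 to 3, CCCTCCC from 3 to 1 and CTAATG from 1 to 0. Matches were summed by window, so a match in bases shared by overlapping windows of LIG4 or NHEJ1 can count more than once.

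No paired analysis was possible because the series held a single IP with a single input. The 6 peaks rest on 7 to 13 fragments each, and IP coverage below the peak caller's threshold leaves no entry, so a gene without a listed peak is not shown to lack HNRNPK.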
